A study of Drosophila melanogaster with 2 samples.

Results

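The regions described here lie in introns close to promoters in a map of Ash1 on chromatin of Drosophila melanogaster embryos. They are the candidate regions of the pooled list whose summit fell more than 500 and at most 5000 bp from the nearest annotated transcription start site (TSS), inside a gene and in no annotated exon. Of 30000 candidate regions, 7681 met these conditions. Of those, 346 were in the list that passed the authors' threshold on the irreproducible discovery rate (IDR) and are called intronic peaks, and 7335 were not and are called the other intronic regions. The intronic peaks were 4.50% of the 7681, against 5.22% of all 30000 candidates. Binding was measured by chromatin immunoprecipitation and sequencing (ChIP-seq) in 2 biological replicates, replicates 2 and 4, of 1 group. The embryos, of both sexes and 0 to 24 h old, came from a transgenic line that stably makes Ash1 with GFP at its C terminus. Chromatin was sonicated to 200 to 800 bp. The labels do not say whether the tagged protein replaces the endogenous one or is added to it, and whole embryos mix all tissues and stages. Free text in the labels names both samples as input controls, whereas their antibody field says ash1 and peaks were called on them, so they were read as ChIP samples. No untagged strain or second condition was analysed here.

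Ash1 is a trithorax group protein that methylates histone H3 at lysine 36 and helps to keep developmental genes active against repression by the Polycomb group. In flies, introns near the promoter, the first intron above all, often hold enhancers, alternative promoters and Polycomb response elements. GAGA factor, encoded by Trl, binds repeats of GA at many such elements and at promoters.

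The sequences around the strongest summits are printed first, since the values below turn on where these sites lie and on the GAGAG motif. Each runs 100 bp to either side of the summit, on the plus strand of dm6, read from RefSeq's copy of that assembly, with GAGAG or its complement CTCTC in capitals. The 5 strongest intronic peaks lay in ush, CG11050, ph-p, CG9663 and Lk6. Those of CG9663 and Lk6 held GAGAG, and those of ush, CG11050 and ph-p did not.
ush, chr2L:481040-481240: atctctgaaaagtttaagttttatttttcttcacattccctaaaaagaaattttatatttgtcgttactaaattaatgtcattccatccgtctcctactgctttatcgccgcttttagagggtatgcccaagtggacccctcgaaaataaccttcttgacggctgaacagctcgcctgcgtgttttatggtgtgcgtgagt
CG11050, chr2L:6612600-6612800: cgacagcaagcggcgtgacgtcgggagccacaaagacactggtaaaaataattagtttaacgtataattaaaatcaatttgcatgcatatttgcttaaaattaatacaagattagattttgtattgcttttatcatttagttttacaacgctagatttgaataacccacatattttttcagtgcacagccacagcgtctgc
ph-p, chrX:2137256-2137456: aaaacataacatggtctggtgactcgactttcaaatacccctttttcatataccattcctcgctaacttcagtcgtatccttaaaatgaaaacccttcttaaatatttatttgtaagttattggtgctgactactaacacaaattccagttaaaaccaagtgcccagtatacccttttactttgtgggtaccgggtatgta
CG9663, chr2L:3302088-3302288: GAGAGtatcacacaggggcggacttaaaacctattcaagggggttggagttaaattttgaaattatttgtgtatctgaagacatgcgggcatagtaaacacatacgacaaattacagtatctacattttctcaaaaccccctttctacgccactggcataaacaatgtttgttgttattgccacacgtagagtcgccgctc
Lk6, chr3R:11760969-11761169: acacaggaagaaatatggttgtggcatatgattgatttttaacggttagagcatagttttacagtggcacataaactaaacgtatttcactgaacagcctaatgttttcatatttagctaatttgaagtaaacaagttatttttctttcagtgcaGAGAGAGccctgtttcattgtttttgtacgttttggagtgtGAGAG

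The other 4 windows are from strong intronic peaks with at least 2 occurrences of the motif in the window. They lay in Tlk, elav, Raf and sty. The central 50 bases of each of the 9 printed windows occur once in the assembly, those in ph-p included, which has a neighbouring duplicate, ph-d.
Tlk, chrX:3742121-3742321: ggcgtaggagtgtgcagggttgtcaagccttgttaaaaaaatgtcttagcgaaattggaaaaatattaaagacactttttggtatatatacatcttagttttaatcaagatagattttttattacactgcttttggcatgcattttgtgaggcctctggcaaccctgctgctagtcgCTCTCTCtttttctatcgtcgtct
elav, chrX:522547-522747: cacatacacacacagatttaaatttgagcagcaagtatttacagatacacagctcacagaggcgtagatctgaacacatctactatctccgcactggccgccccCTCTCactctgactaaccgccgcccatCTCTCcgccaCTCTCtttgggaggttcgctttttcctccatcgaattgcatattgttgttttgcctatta
Raf, chrX:2297634-2297834: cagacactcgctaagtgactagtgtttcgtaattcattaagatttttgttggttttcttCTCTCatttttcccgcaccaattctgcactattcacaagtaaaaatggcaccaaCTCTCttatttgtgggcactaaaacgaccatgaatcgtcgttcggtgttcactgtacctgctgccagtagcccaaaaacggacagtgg
sty, chr3L:3418424-3418624: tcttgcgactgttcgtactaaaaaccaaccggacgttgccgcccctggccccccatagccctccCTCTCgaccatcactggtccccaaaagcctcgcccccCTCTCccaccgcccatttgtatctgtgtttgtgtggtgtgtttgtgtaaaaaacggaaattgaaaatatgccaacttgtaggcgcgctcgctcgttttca

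Candidates were ranked by the deposited signal value, whose scale is not stated, with rank 1 the highest. The strongest intronic peak, with a pooled signal value of 809, lay in the first intron of ush, which encodes a zinc-finger partner of GATA factors. Its summit was 1452 bp upstream of the TSS of cbt, a zinc-finger transcription factor gene. It ranked 3 in the pooled list, 2 in replicate 2 and 10 in replicate 4, so it stood near the top in both replicates. A region in CG11050 followed, at rank 6 (replicate 2, rank 3; replicate 4, rank 13). Its summit fell in an intron of only 140 bp, so that the 387 bp region also covered exon sequence. The region in ph-p, which encodes a subunit of Polycomb repressive complex 1, ranked 8 in the pool, 6 in replicate 2 and 20 in replicate 4. It lay just over 500 bp upstream of the nearest ph-p TSS. CG9663 followed at rank 13 (replicates, 9 and 22) and Lk6, which encodes a kinase of translation factor eIF4E, at rank 16 (replicates, 11 and 17). All 5 ranked within the 22 strongest candidates of both replicates.

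**Figure D1:**
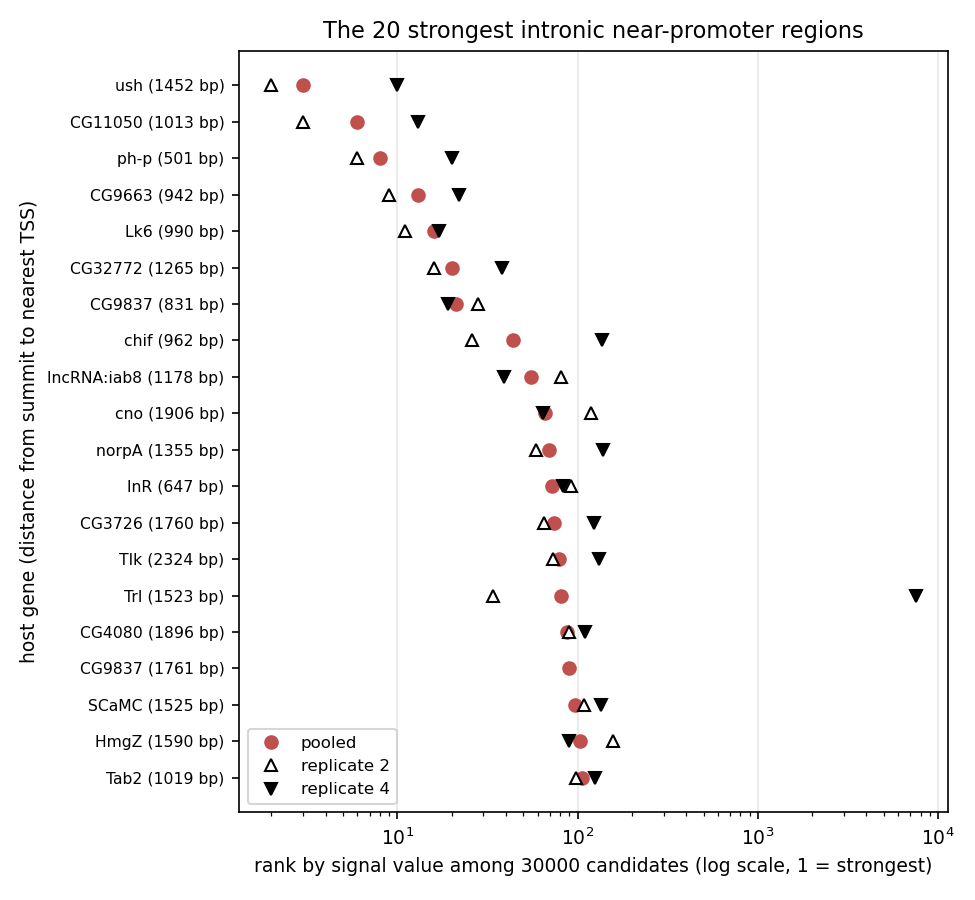
Pooled rank (filled circles) and ranks in replicate 2 (open triangles) and replicate 4 (filled triangles) of the 20 strongest intronic peaks, on a log axis with 1 the strongest candidate of 30000. The ranks lie close together in most rows; the peak in Trl ranked 34 in replicate 2 and 7500 in replicate 4, and the weaker one in CG9837 has no candidate within 100 bp in either replicate.

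The 20 strongest intronic peaks lay in 19 genes, 18 of them in first introns, and 18 were among the 1567 strongest candidates of both replicates to within 100 bp. The number 1567 is that of all regions that passed, and it serves below as the threshold within each replicate. Their summits were between 500 and 2324 bp from a TSS, 12 on its transcribed side and 8 on the other. Beyond the first 5 they included regions in chif, which encodes a partner of the replication kinase Cdc7 (rank 44), and cno, whose product joins cell junctions to actin (66). Others lay in norpA, the phospholipase C of light detection in the eye (69), InR, the insulin receptor (72), and Tlk, the Tousled-like kinase (79). SCaMC, Tab2, CG32772, CG3726 and CG4080 held 1 each, as did lncRNA:iab8 and HmgZ, and CG9837 held 2. Only 2 of the 20 went without support from both replicates. The peak in intron 2 of Trl, at pooled rank 81, had a signal value of 194 and rank 34 in replicate 2, against 28.6 and rank 7500 in replicate 4. The weaker peak in CG9837, at pooled rank 90, had no candidate within 100 bp in either replicate. To within 250 bp, it did match 1 of the 1567 strongest of at least 1 replicate, as did all 109 intronic peaks of pooled rank 1 to 500.

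Of the 346 intronic peaks, 157 (45.4%, 95% interval 40.04 to 50.8%) were among the 1567 strongest of both replicates, 80 of replicate 2 only, 85 of replicate 4 only and 24 of neither. Among intronic peaks of pooled rank 1 to 500, 95 of 109 (87.2%) were strong in both, and among those of rank over 500 up to 1567, 62 of 237 (26.2%). The pooled rank is built from both replicates, so part of this difference is given by construction, and regions near the threshold drop below it more readily. Promoter peaks, with a summit within 500 bp of a TSS, were shared at 47.4% (433 of 914) and intronic peaks over 5000 bp from a TSS at 48.1% (51 of 106), both within the interval of the intronic near-promoter peaks. Intervals here are Clopper-Pearson intervals of counts. Neighbouring regions are not independent and no read counts were at hand, so the intervals do not cover the error between embryo collections, for which the values of both replicates are given.

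Counted over its whole distance range, an intronic region near a promoter was in the passed list less often than a promoter region. It was there more often than any other class outside promoters. Its lead over intergenic regions at 500 to 5000 bp was small, with overlapping intervals, and did not hold at every distance, as given below. The near-promoter introns, at 4.50% (interval 4.05 to 4.99%), gave 4.63% in replicate 2 and 4.65% in replicate 4. Promoter candidates passed at 10.8% (914 of 8445; replicates 9.73% and 11.2%). Intergenic candidates over 500 and up to 5000 bp away passed at 3.56% (109 of 3065; interval 2.93 to 4.27%; replicates 3.51% and 3.89%) and exonic candidates at that distance at 1.28% (55 of 4295). Introns over 5000 bp from a TSS passed at 2.48% (106 of 4282; interval 2.03 to 2.99%), with 2.57% and 2.72% in the replicates. The difference between near and distant introns was larger than that between replicates in either class. With 1 group of 2 samples that share 1 control alignment, no test over samples could be made.

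**Figure D2:**
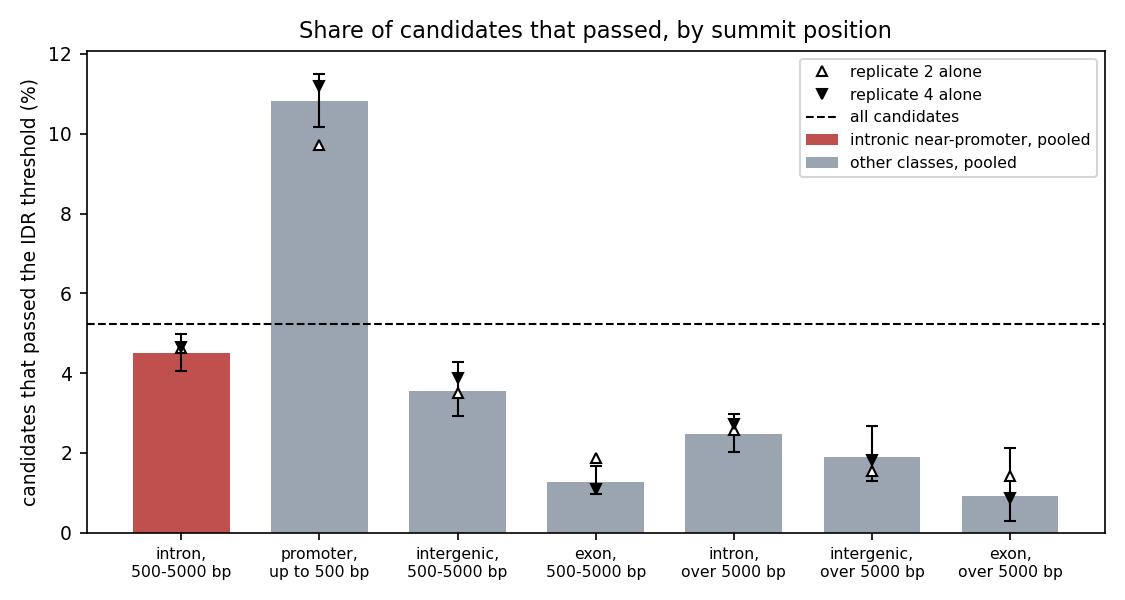
Percent of candidates that passed, by position of the summit; bars and 95% Clopper-Pearson intervals are from the pooled list, and triangles count each replicate's 1567 strongest candidates. Intronic near-promoter regions (red, 4.50%) lie below the line for all candidates (5.22%) and below promoters (10.8%), and above the other 5 classes.

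Within the introns, regions closer to a TSS passed more often. Over 500 and up to 1000 bp, 112 of 1687 passed (6.64%; replicates 6.29% and 5.63%), up to 2000 bp 118 of 2422 (4.87%; 5.27% and 5.29%) and up to 3000 bp 58 of 1567 (3.70%). In the next class, up to 4000 bp, it was 32 of 1185 (2.70%; replicates 3.67% and 3.71%) and up to 5000 bp 26 of 820 (3.17%). The median distance was 1419.5 bp for intronic peaks (interval 1290 to 1590 bp) and 1891 bp for the other intronic regions (1852 to 1933 bp). The medians were 1461 against 1870 bp in replicate 2 and 1546 against 1904 bp in replicate 4, the intronic peaks lying closer in both. Intergenic regions had 6.05% up to 1000 bp (replicates 4.64% and 7.003%), 3.43% up to 2000 bp, 1.96% up to 3000 bp (replicates 2.99% and 2.17%), 2.79% up to 4000 bp and 3.54% up to 5000 bp. The highest share was thus in the nearest class for intergenic regions too, in the pool and in both replicates. Class by class, the pooled share of intronic regions was above that of intergenic regions up to 3000 bp and below it beyond. Replicate 4 had the opposite order up to 1000 bp, at 5.63% against 7.003%, and the replicates disagreed in both classes beyond 3000 bp. Only between 1000 and 3000 bp did both replicates have the higher share in introns.

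Intronic regions between 500 and 600 bp passed at 7.94% (replicates 7.53% and 5.21%) and intronic candidates between 400 and 500 bp, just outside, at 8.31% (replicates 6.54% and 7.83%). At the far side the shares were 3.31% between 4500 and 5000 bp (replicates 3.38% and 3.28%) and 2.67% between 5000 and 5500 bp (replicates 2.03% and 3.86%). At each limit the order of inside and outside differed between the replicates. The intronic peaks nearest to the limits were in ph-p, just over 500 bp, and in the Hox gene Antp, at 4981 bp and rank 1545. Just outside lay peaks in DCP2, at 498 bp and rank 1560, and in neur, at 5028 bp and rank 1291. Of the other intronic regions, those nearest to the limits were in rdx, also just over 500 bp, and in Eip75B, at 5000 bp.

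First introns held 275 of the 346 intronic peaks (79.5%, interval 74.8 to 83.6%) and 5372 of the 7335 other intronic regions (73.2%, interval 72.2 to 74.3%), where an intron counts as first if it is so in at least 1 transcript of a host gene. The shares were 81.4% against 73.3% in replicate 2 and 80.1% against 71.1% in replicate 4. Of first-intron regions, 4.87% passed (275 of 5647), against 3.49% of later-intron regions (71 of 2034), where intron 2 gave 4.06% and introns 3 and later 2.35%. This difference depended on which regions were set against the intronic peaks. Among the 10000 strongest candidates alone, 79.5% of intronic peaks and 78.2% of the other intronic regions lay in first introns, and 12.97% and 12.1% of first-intron and later-intron regions passed. Intronic peaks of pooled rank over 500 lay in first introns at 76.4% (181 of 237), less often than the intronic regions just under the threshold, of rank 1568 to 5000 (83.1%, 777 of 935). By their own ranks replicate 4 had the same order, with 77.4% and 81.4%, and replicate 2 the opposite, with 80.5% and 78.8%.

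The excess in first introns was found close to the TSS. Up to 2000 bp away, 200 of 3251 first-intron regions passed (6.15%; replicates 6.22% and 6.07%), against 30 of 858 later-intron regions (3.50%; replicates 3.58% and 3.27%). Over 2000 bp away, 75 of 2396 first-intron regions passed (3.13%; replicates 3.57% and 4.07%), against 41 of 1176 later-intron regions (3.49%; replicates 3.05% and 3.23%). The near difference exceeded the gap between replicates, and the far one changed sign between the pool and the replicates. For later introns between 4000 and 5000 bp the pooled share of 4.78% stood beside 2.33% in replicate 2 and 3.92% in replicate 4.

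**Figure D3:**
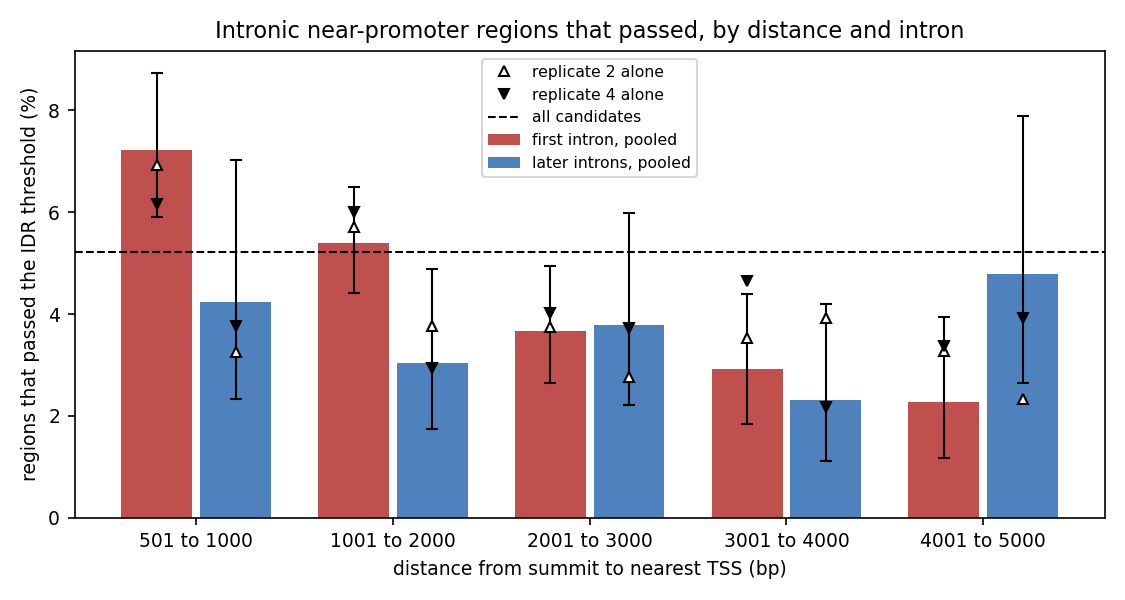
Percent of intronic near-promoter regions that passed, by distance of the summit from the nearest TSS, in first introns (red) and later introns (blue), with 95% Clopper-Pearson intervals and each replicate alone (triangles). First introns decline from 7.22% in the class up to 1000 bp to 2.28% in the class up to 5000 bp, and later introns show no steady order.

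The nearest TSS belonged to the gene around the region in 83.5% of intronic peaks. Regions nearest to a TSS of their own host passed at 4.89% (289 of 5913; replicates 5.06% and 4.93%) and those nearest to a TSS of another gene, as in ush, at 3.22% (57 of 1768; replicates 3.15% and 3.78%). Regions on the transcribed side of the nearest TSS passed at 4.40% (226 of 5142; replicates 4.33% and 4.25%). Those on the other side passed at 4.73% (120 of 2539; replicates 5.27% and 5.43%). Of intronic peaks 65.3% lay on the transcribed side of the nearest TSS, against 67.0% of the other intronic regions; the values were 63.4% against 68.0% in replicate 2 and 60.5% against 66.5% in replicate 4. A region upstream of its nearest TSS is still inside a gene, and for the strongest regions of ph-p, Lk6 and InR that TSS was one of the same gene. With the upper distance limit at 3000 bp the order was the other way round, at 67.7% against 67.0%.

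Intronic regions passed more often when the nearest TSS itself carried a promoter peak. With a peak at that TSS, 96 of 1220 passed (7.87%; replicates 7.73% and 7.02%), and without one, 250 of 6461 (3.87%; replicates 4.06% and 4.18%). Up to 1000 bp the shares were 11.9% against 5.96%, between 1000 and 2000 bp 9.62% against 4.03%, between 2000 and 3000 bp 6.27% against 3.13% and between 3000 and 4000 bp 6.99% against 1.67%. Both replicates had the same order in each of these 4 classes. Between 4000 and 5000 bp the pool gave 2.72% (4 of 147) against 3.27%, where replicate 2 gave 3.66% against 2.75% and replicate 4 gave 4.93% against 3.29%. Regions with another peak of any class within 1000 bp passed at 10.1% (47 of 464; replicates 11.9% and 10.8%), against 4.14% of those without (299 of 7217; replicates 4.10% and 4.18%).

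The 7681 intronic regions lay in 2212 host genes, and 271 of these (12.3%) held an intronic peak, 263 coding and 8 noncoding. Of the 271, 223 held 1 intronic peak, 33 held 2 and 15 held 3 or more. Hosts of an intronic peak had a promoter peak at 41.0% (111 of 271, interval 35.1 to 47.1%), against 17.1% of the other hosts (331 of 1941). The values were 42.1% against 16.6% in replicate 2 and 40% against 16.6% in replicate 4. An intronic peak was held by 29.4% of hosts with 5 or more intronic regions, 8.62% of hosts with 2 to 4 and 5.44% of hosts with 1. Per region the shares that passed were 4.81%, 3.44% and 5.44%, with no steady order by the number of regions in the gene. Among hosts of 5 or more regions, 52.6% of those with an intronic peak had a promoter peak, against 33.9% of those without. For 2 to 4 regions these values were 33.8% and 16.1%, and for 1 region 14.3% and 10.6%.

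The 15 genes with 3 or more intronic peaks held 57 of the 346, and 14 of them also had a promoter peak. CG14434, a gene of unknown role on X, held 6 intronic peaks among 10 intronic regions, the highest share of the 15. They ranked from 211 to 995, spanned 12580 bp, and 4 were strong in both replicates. lncRNA:iab8, a noncoding transcript of the bithorax complex that runs from near Abd-B towards abd-A, held 5 of 33. The strongest ranked 55 in the pool (replicate 2, 81; replicate 4, 39), 1178 bp from a TSS of that transcript. lncRNA:bxd, transcribed upstream of the Hox gene Ubx, held 3 of 20 at ranks of 923 or weaker, none strong in both replicates, and was the gene of the 15 without a promoter peak.

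Smr, which encodes a corepressor of nuclear receptors, held 5 of 14, the best at rank 297. In hth, a homeobox gene whose product partners Hox proteins, 4 of 22 passed, all 4 in first introns and strong in both replicates, within 6855 bp. Besides its strongest peak, ush held 3 more, at ranks 168, 1025 and 1207. InR held 4 of 12 at ranks 72, 330, 771 and 1516, all in first introns. CHES-1-like, a forkhead gene, held 4 of 13 and shn, a zinc-finger gene of Dpp signalling, 4 of 26. HmgZ, a chromosomal HMG-box protein gene, held 3 of 7, all strong in both replicates. NFAT held 3 of 13, bun 3 of 35, Diap1, the inhibitor of caspases, 3 of 9, and atos 3 of 18. In mam, a coactivator of Notch, 3 of 24 passed and none of these was strong in both replicates. First introns held all intronic peaks of ush, InR, CHES-1-like, hth, HmgZ, NFAT, Diap1, lncRNA:bxd and atos, and 3 of 4 in shn. They held 3 of 5 in Smr, 2 of 5 in lncRNA:iab8, 1 of 6 in CG14434 and none in bun or mam. The nearest TSS was that of a gene around the region for 1 of 5 in Smr, 2 of 5 in lncRNA:iab8 and 2 of 4 each in ush and InR. In the rest it was so for most or all.

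**Figure D4:**
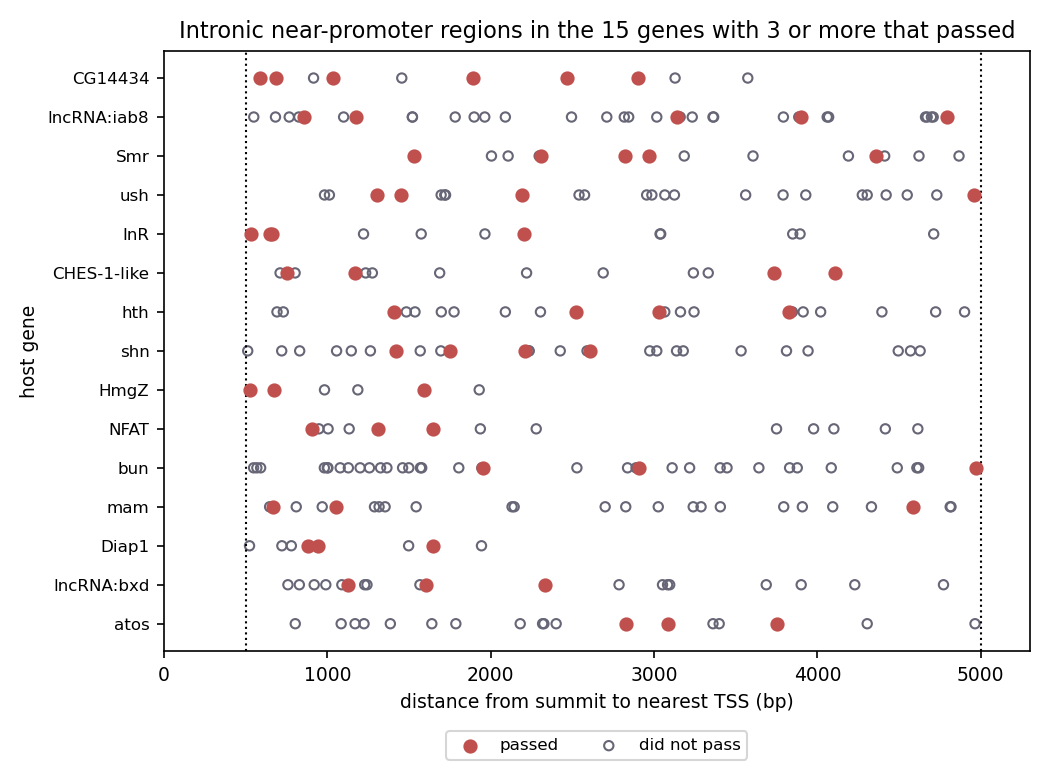
Distance from summit to nearest TSS of every intronic near-promoter region in the 15 genes with 3 or more intronic peaks, peaks filled and others open; dotted lines mark 500 and 5000 bp. In most genes peaks lie among regions that did not pass, and CG14434 alone has more peaks (6) than others (4).

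Gene lists were read against the 12.3% of host genes and the 4.50% of regions over all hosts. The 12.3% is an unlike measure for genes with many regions, since 29.4% of hosts with 5 or more regions held an intronic peak, against 5.44% of hosts with 1. Counts of hosts are not adjusted for this, and the share of regions is the closer comparison. Among Polycomb group genes 3 of 9 hosts held an intronic peak (ph-p, Kdm2 and jing), with 5 of 62 regions passed (8.06%; replicates 7.14% and 5.26%). Among trithorax group genes 5 of 10 did, with 5 of 71 regions (7.04%; replicates 7.23% and 6.76%). They were Trl, trx, which encodes a methyltransferase of histone H3 lysine 4, tna and kis among the 4 strongest. The peak in trx ranked 454 in the pool, 253 in replicate 2 and 1122 in replicate 4. Intervals for both lists reach down past the value for all regions, so neither stood apart from it. Of the Hox genes 3 of 7 hosts held 1 intronic peak each, abd-A at rank 1094, Abd-B at 1132 and Antp at 1545, which is 3 of 83 regions (3.61%; replicates 2.30% and 5.71%). Their ranks in replicates 2 and 4 were 1549 and 1469 for abd-A, 4023 and 679 for Abd-B, and 855 and 1716 for Antp, so that the peak in abd-A was strong in both. The 2 Hox-complex noncoding genes, lncRNA:iab8 and lncRNA:bxd, held 8 of 53 (15.1%, interval 6.75 to 27.6%; replicates 10.7% and 16.7%). Hox cofactors held 5 of 36 (13.9%, interval 4.67 to 29.5%; replicates 17.1% and 15.6%), of which hth had 4 and tsh 1. Regions of 1 gene are not independent and the peaks of these 2 lists lie in few genes. Their intervals therefore do not show that either list stood apart from all regions.

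Among signalling genes, the kinases and phosphatases of stress and metabolism had intronic peaks in 8 of 19 hosts and in 13 of 152 regions (8.55%, interval 4.63 to 14.2%; replicates 6.83% and 11.7%), led by Lk6, InR, Hipk and Akt. InR held 4 of the 13, and Lk6 and Hipk 2 each. Gene lists were chosen with earlier results of these data known, so such an interval is not an independent test. In the list of Notch, Dpp, EGFR and JAK-STAT signalling 8 of 24 hosts and 12 of 203 regions passed (5.91%; replicates 7.66% and 6.91%), among them regions in Raf and in the antagonists sty, Socs36E and aop. Wingless and Hedgehog genes had 3 of 122 regions (2.46%; replicates 1.32% and 3.45%), in ptc, dlp and pan. Zinc-finger and other developmental transcription factors had 18 of 371 regions (4.85%; replicates 6.27% and 4.64%), led by ush, sim, psq and shn. Nuclear receptors had 6 of 111 (5.41%; replicates 3.67% and 4.90%), in EcR, Hr4, Eip75B and Hnf4. The peak in EcR, the ecdysone receptor gene, ranked 119 in the pool, 296 in replicate 2 and 97 in replicate 4.

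Axon guidance and cell adhesion genes had intronic peaks in 2 of 36 hosts and 2 of 167 regions (1.20%, interval 0.145 to 4.26%; replicates 2.27% and 1.38%), in Nrt and NetB. Homeobox genes outside the Hox complexes had 2 of 36 hosts, zfh2 and zfh1, and 3 of 158 regions (1.90%; replicates 2.42% and 2.07%). Neuronal channel and synapse genes had 1 of 58 (1.72%; replicates 3.51% and 1.79%), in elav, which encodes a neuronal RNA-binding protein and is listed in RNA-binding proteins too. That list held 4 of 134 (2.99%; replicates 5.41% and 4.07%), in elav, Rbfox1, ps and Imp. Cytoskeleton and polarity genes had 6 of 163 (3.68%; replicates 5.62% and 2.19%), with mbc, tsr, Cdep and chic the strongest, and cell cycle and growth genes 5 of 89 (5.62%; replicates 2.11% and 7.59%), in Diap1 and E2f1. The ribosomal protein genes hosted no intronic region of the pooled list.

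GAGAG was found within 100 bp of the summit, on either strand, in 42.2% of intronic peaks (146 of 346, interval 36.9 to 47.6%), in 28.4% of the other intronic regions and in 28.3% of all candidates. The values were 39.5% against 26.1% in replicate 2 and 42.2% against 29.6% in replicate 4. Within 50 bp of the summit it was in 19.9% of intronic peaks (interval 15.9 to 24.5%) and 16.1% of the other intronic regions, a smaller difference, within that interval. Within 100 bp, at least 2 occurrences, overlapping ones counted, were found in 22.0% of intronic peaks and 9.98% of the other intronic regions. Promoter peaks held it in 34.9% of cases and intronic peaks over 5000 bp from a TSS in 43.4%. Of intronic regions with GAGAG 6.55% passed, against 3.67% without. In first introns these shares were 7.10% and 3.95%, and in later introns 4.98% and 2.89%. The motif was therefore more frequent in intronic peaks in both kinds of intron. By pooled rank, the share of intronic regions with GAGAG was 50% for ranks 1 to 100 (9 of 18), 43.96% up to rank 500, 40.9% up to 1567, 35.4% up to 5000, 28.7% up to 15000 and 26.4% for the rest. Replicate 2 had 39.1% for its ranks 1 to 100 and 45.7% up to rank 500, and replicate 4 had 44.4% and 50.6%. In both, the share fell from class to class after that. All pooled candidates had 24% for ranks 1 to 100, then 38.75%, 38.3%, 33.7%, 29.1% and 25.7%. A decline past rank 100 was thus not particular to intronic regions. A match is a string of letters and not a measured site of GAGA factor.

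**Figure D5:**
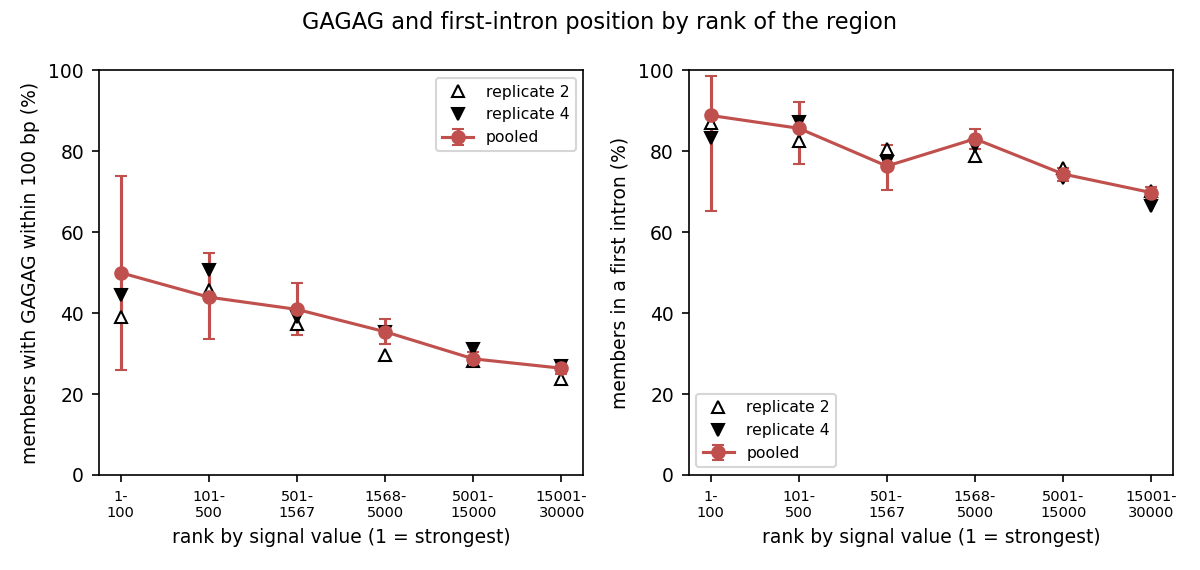
Percent of intronic near-promoter regions with GAGAG within 100 bp of the summit (left) and in a first intron (right), in 6 classes of rank by signal value, with 95% Clopper-Pearson intervals for the pool and triangles for each replicate. In the pool the GAGAG share is lower in each weaker class, and the first-intron share is lower in the weakest class of peaks (76.4%) than in the class after it (83.1%). In both replicates the GAGAG share is higher at ranks 101 to 500 than at ranks 1 to 100.

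Of the other motifs searched, GTGTGTG, a repeat like that bound by Combgap, was found in 20.8% of intronic peaks and 12.3% of the other intronic regions (replicates 16.7% against 11.5% and 21.1% against 13.5%), against 11.3% of all candidates. It was in 15.9% of intronic peaks strong in both replicates (interval 10.6 to 22.6%) and 16.5% of those among the 500 strongest candidates. Intronic regions just under the threshold, of rank 1568 to 5000, had it in 17.3%. TGAGTG, as bound by Zeste, was in 18.2% against 12.8% (16.7% against 11.8% and 17.8% against 12.9% in the replicates), with 11.8% of all candidates. GCCAT, the core of the Pho site, was in 33.2% against 37.4% (replicates 28.1% against 35.6% and 36.1% against 38.5%), with 38.2% of all candidates. TATCGATA, the DNA replication-related element, was in 1 of 346 intronic peaks (0.289%) and 0.436% of the other intronic regions, where promoter peaks had 6.67% and all candidates 1.48%.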

How the data were processed

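Per the deposited text, the authors made from 2 ChIP-seq samples 3 lists of 30000 candidates, 1 per replicate and 1 from pooled alignments, all against 1 shared control alignment, and a list of 1567 regions under an IDR threshold. Aligner, caller and threshold value: not given in the sources used here. Per list, the deposited signal value is a score of unstated scale and was used for ranking; starts, ends and summit offsets were used as deposited. The 1567 were exactly the highest-scoring pooled candidates. Read depth is unknown.

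Summits were placed on Ensembl release 115 genes (18164 genes, 23581 TSSs, transposable elements left out). The host was the gene around the summit with its own TSS nearest; 552 regions lay in several genes. Shares have Clopper-Pearson 95% intervals, and each replicate's 1567 strongest candidates gave the replicate values. Position calls were tested on simulated data. Regions, gene lists and tests were chosen with earlier results of these data known. Of 640 list symbols, 619 matched by symbol, 8 by synonym and 13 were left out. Named are hosts of the 20 strongest intronic peaks, hosts of 3 or more, up to 4 genes per list and regions nearest the distance limits; the 4 further printed sequences are from the strongest peaks with 2 or more GAGAG, arm 2R left out. Alternatives covered threshold, replicate, background, gene set, distance, merging, intron numbering and windows. Python 3.11.15, pandas 2.3.3, NumPy 2.4.6 and SciPy 1.17.1 were used.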

Additional observations from a re-analysis of the deposited data

How the results depend on the processing

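The direction between intronic peaks and the other intronic regions in first-intron share, distance or GAGAG was the same under each alternative tried for it. The first-intron difference nearly closed with the 10000 strongest candidates as background, as given above. In the pool and replicate 4 it was reversed between intronic peaks of rank over 500 and intronic regions of rank 1568 to 5000. Shares that passed follow the number of regions called or compared by construction. The share of intronic regions that passed was 1.42% with the 500 strongest candidates as peaks, 2.10% with peaks strong in both replicates, 12.8% with the 10000 strongest as background, 3.90% over 1000 bp, 5.07% up to 3000 bp and 6.47% with neighbours under 1000 bp apart merged. In the same order it was 1.66%, 2.33%, 12.97%, 4.13%, 5.52% and 7.21% for first introns, and 0.737%, 1.46% and 12.1%, with 4.62% after merging, for later introns. The first-intron share of intronic peaks was 86.2% with the 500 strongest, 83.7% up to 3000 bp, 54.9% where every transcript had to agree and 63.3% by the longest transcript. Their median distance was 1265 bp with the 500 strongest, 1962.5 bp over 1000 bp and 1172 bp up to 3000 bp. Hosts with an intronic peak had a promoter peak at 15.5% with the 500 strongest, 24.4% with peaks strong in both and 34.3% within 250 bp of a TSS. For introns of up to 2000 bp the share that passed, 5.17% as reported, was 2.23% with the 500 strongest, 2.77% with peaks strong in both and 17.5% against the strongest 10000. In the same order it was 1.51%, 2.09% and 14.9% for introns between 2000 and 5000 bp, 1.32%, 2.14% and 12.3% between 5000 and 20000 bp, and 1.18%, 1.72% and 10% over 20000 bp; merging gave 8.07%, 6.99% and 4.56% for these 3. Listed genes with an intronic peak numbered 62 as reported, 26 with the 500 strongest and 36 with peaks strong in both. GAGAG was in 19.9% of intronic peaks and 16.1% of the other intronic regions within 50 bp, and 35.0% of intronic peaks were strong in both replicates at a match of 50 bp. No paired analysis was possible because there is 1 group. Depth could not be assessed, since the lists hold no read counts. Shares by distance class and arm, and counts per gene, were added to these alternatives after the data were seen.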

Other observations

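By intron length, the share of intronic near-promoter regions that passed was 5.17% in introns of up to 2000 bp (replicates 4.57% and 4.22%), 5.82% between 2000 and 5000 bp (5.61% and 5.06%), 4.58% between 5000 and 20000 bp (4.70% and 5.10%) and 3.13% over 20000 bp (3.85% and 3.77%). The longest introns had the lowest share in the pool and in both replicates, and the order of the other classes differed between them. Median GC within 100 bp of the summit was 42.3% for intronic peaks and 44.3% for the other intronic regions. It was 39.8% against 42.8% in replicate 2 and 44.5% against 45.8% in replicate 4, so GC was lower throughout in replicate 2 and lower for intronic peaks in both. In the lowest of 5 classes of GC, up to 38.3%, 115 of 1678 regions passed (6.85%; replicates 6.62% and 5.62%), among them the peaks in CG11050, ph-p, Lk6 and Tlk printed above. The other classes gave 4.58%, 3.40%, 3.55% and 3.82%. They gave 4.09%, 2.59%, 4.04% and 4.47% in replicate 2, and 5.23%, 3.91%, 3.81% and 4.90% in replicate 4. The lowest class thus had the highest share in both replicates, but only slightly so in replicate 4. Whether the read depth of each replicate varies with GC was not tested.

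By arm, 81 of 1436 regions passed on X (5.64%), 85 of 1809 on 3R (4.70%), 59 of 1318 on 2L (4.48%), 62 of 1533 on 2R (4.04%) and 54 of 1519 on 3L (3.55%). On the short chromosome 4 it was 5 of 66 (7.58%, interval 2.51 to 16.8%). Hosts with 1 annotated TSS had 3.44% of their regions passed (interval 2.71 to 4.29%), those with 2 to 3 TSSs 5.08% (4.38 to 5.85%) and those with 4 or more 4.66%. Of the remaining motifs, TATAAA was in 21.7% of intronic peaks and 18.2% of the other intronic regions, CACGTG in 3.76% and 3.07%, CAGGTAG, as bound by Zelda, in 1.73% and 1.81%, TCAGT in 28.6% and 29.6%, and a run of A of the searched length in 11.0% and 9.86%. The order was the same in both replicates for TATAAA and CACGTG. It was the opposite in both for CAGGTAG (1.86% and 1.41%, then 2.11% and 1.76%) and for the run of A (9.02% and 11.5%, then 7.83% and 9.07%), and in replicate 2 for TCAGT (30.8% and 29.7%).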
